A study of Mus musculus with 6 samples.

Results

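The genes described here are 33 mouse genes of meiotic recombination and chromosome cohesion, chosen by name from their known roles. Earlier results of these data were known when the choice was made. The genes act in double-strand break formation, on the chromosome axis, in strand exchange, crossover formation, meiotic cohesion, checkpoint signalling and entry into meiosis. Of these, 32 were among the 23253 genes listed in any library. Rnf212, which encodes a SUMO ligase that promotes crossovers, was listed in none of the 6 deposited tables under its symbol or its Entrez identifier, and is 0 by the rule used here. The sources used here do not say whether the annotation that was counted on held Rnf212.

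Messenger RNA, selected by oligo(dT) from DNase-treated total RNA, was measured in whole testes of C57BL/6 mice aged 8 months, in 6 libraries, of which 3 carry the genotype label control and 3 the label L3mbtl2 cKO, a conditional knockout. The L3MBTL2 protein belongs to the Polycomb complex PRC1.6, which in other cells represses germline genes. The labels name no Cre driver and no target cell type, and nothing states that each library is 1 animal. The p-values below therefore cover only how far libraries of a label lie apart, which may be technical. Expected counts summed to between 17689205 and 18822050 per library.

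Meiotic recombination begins when SPO11 cuts both DNA strands at many places in the genome. The broken ends are resected and coated with recombinases, DMC1 among them, which search the homologous chromosome for a matching sequence. A few of the resulting joints mature into crossovers, which hold the homologues together until they separate. All of this takes place on chromosome loops anchored to an axis that is built on cohesin complexes, several subunits of which are made only in germ cells. In the testis these steps occur in spermatocytes, so most of the 33 genes are known chiefly from those cells, whereas Brca1, Brca2, Atm, Atr, Topbp1, Rad51c, Xrcc3 and Exo1 also serve DNA repair in dividing cells elsewhere. In RNA from a whole testis, fewer cells of a type and less RNA per cell cannot be told apart.

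The label of each library was checked on the targeted gene. L3mbtl2 stood at 14.04, 14.89 and 13.59 FPKM, the deposited unit scaled for gene length and library depth, in control-labelled libraries and at 15.87, 17.09 and 16.03 FPKM in cKO-labelled ones, so it was higher, not lower, under the label cKO. In expected counts it stood at 658, 705 and 673 against 1030, 1105 and 1031 (log2 fold change 0.67, SE 0.10, adjusted p = 0.166 in edgeR's quasi-likelihood test). The difference was larger in counts than in FPKM, and the deposited length of L3mbtl2 was 2652, 2659 and 2838 bases against 3491, 3489 and 3498. The names of the deposited tables also carry the opposite genotype from the sample titles. Libraries are therefore called by their labels throughout, and every direction would turn if the labels were exchanged. Markers of spermatocytes were present: all 11 synaptonemal complex and meiotic telomere genes examined were listed, with a summed level of 489.5 to 657 FPKM. Markers of somatic cells differed between libraries. Summed peritubular myoid markers overlapped between control-labelled and cKO-labelled libraries (68.85 to 146.6 against 56.89 to 70.92 FPKM). Macrophage (63.12 to 281.5 against 58.87 to 70.13) and endothelial markers (14.35 to 25.23 against 10.74 to 15.16) overlapped too. In each of these lists only control replicate 2 lay within the cKO-labelled range. Median log2 fold changes, labelled cKO minus labelled control, were -0.66 for myoid markers (0 of 6 positive) and -1.42 for macrophage markers (0 of 9). For endothelial markers the median was -0.53 (1 of 7 positive). Lymphocyte markers were low and apart (4.1 to 4.48 against 3.41 to 4.0). The Leydig markers (10 of 10 listed, none at 0 in every library) summed to 2097 to 10290 FPKM in control-labelled libraries and to 1482 to 1641 FPKM in cKO-labelled ones, and the 13 Sertoli markers to 1015 to 2543 against 756 to 795 FPKM. The mean log2 CPM (counts scaled to library size) of these 23 markers, called the somatic score below, was 6.24, 5.58 and 7.14 in control replicates 1 to 3 and 5.27, 5.14 and 5.13 in cKO replicates 1 to 3. The score did not overlap between the labelled groups. A fit that holds both label and score therefore cannot cleanly tell them apart.

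Short stretches of the promoters of 4 members are shown because PRC1.6 contains E2F6 and the MGA and MAX pair, which bind known DNA letters. The stretches come from RefSeq on GRCm38.p6, the assembly also called mm10, and lie before the transcript start in that promoter table, which for Brca2, Hormad1 and Prdm9 is not the outermost start of the gene. Capitals mark GCGGGAA, an E2F6-type motif, or its complement TTCCCGC, and CACGTG, the E-box of MGA and MAX. All run 5′ to 3′ on the strand of the gene.
Smc1b, chr15:85131958-85132077, minus strand: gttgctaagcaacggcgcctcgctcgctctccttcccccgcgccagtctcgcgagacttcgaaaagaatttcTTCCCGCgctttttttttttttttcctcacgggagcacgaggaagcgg
Hormad1, chr3:95559527-95559646, plus strand: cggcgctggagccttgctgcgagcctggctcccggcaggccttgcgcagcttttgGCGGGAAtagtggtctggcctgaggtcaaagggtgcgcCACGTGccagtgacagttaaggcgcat
Prdm9, chr17:15564355-15564474, minus strand: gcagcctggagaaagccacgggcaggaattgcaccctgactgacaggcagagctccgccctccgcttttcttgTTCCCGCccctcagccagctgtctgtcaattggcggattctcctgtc
Brca2, chr5:150522398-150522517, plus strand: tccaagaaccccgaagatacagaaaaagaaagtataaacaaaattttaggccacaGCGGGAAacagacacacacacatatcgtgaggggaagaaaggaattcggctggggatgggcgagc

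Of the 33 genes, 27 had a promoter in the table, taken as 250 bases before and 50 after the start. GCGGGAA on either strand occurred in 10 of the 27 (37.0%), which were Atm, Brca2, Hormad1, Msh5, Prdm9, Rad51c, Rnf212, Smc1b, Spata22 and Stag3. It occurred in 5.29% of all 27025 genes with a promoter there and in 8.72% of the 13166 of them that were tested for expression. CACGTG occurred in 3 of the 27 (11.1%; 8.09% of all genes and 10.8% of tested ones), namely Hormad1, Stag3 and Rnf212. The cAMP response element TGACGTCA was in the promoters of Brca2 and Rad51c (7.4%; 2.03% of all genes and 3.26% of tested ones), and CNCCTCAG, a motif of the meiotic initiator STRA8, in those of Hfm1, Hormad2, Msh5 and Prdm9 (14.8%; 9.12% of all genes and 10.7% of tested ones). In Prdm9 the last base of the E2F6-type match is also the first of a STRA8 match. These are matches of letters in a window and not measured binding. The 9 listed members with GCGGGAA had a median log2 fold change between the labelled groups of 0.11 (range -0.40 to 0.36), and the 17 with a promoter but no match also had 0.11 (range -0.51 to 0.36).

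Levels of the members spanned a wide range within every library. The cohesin subunit gene Stag3 was the most abundant by mean FPKM over the 6 libraries, at 112, followed by Psmc3ip (81.3), Hormad1 (54.3), Smc1b (53.9), Atr (39.5), Rec8 (32.9) and Spo11 (32.3). Hormad1 and Smc1b were not separated by their spread over libraries (50.4 to 59.4 and 41.9 to 61.8 FPKM), nor were Rec8 and Spo11 (22.9 to 37.4 and 28.2 to 36.2 FPKM). A second tier of 12 members had mean levels between 5 and 20 FPKM, led by Topbp1 (16.5), Tex15 (15.2), Hfm1 (12.1) and Brca2 (11.2). The remaining 13 were under 5 FPKM. Mei4, needed for break formation, was the lowest, at 0.07 to 0.28 FPKM and only 4 to 15 expected counts per library, and the kleisin gene Rad21l (1.25 to 2.05), the hotspot gene Prdm9 (1.41 to 2.29) and Atm (1.68 to 3.20) were also low.

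**Figure D1:**
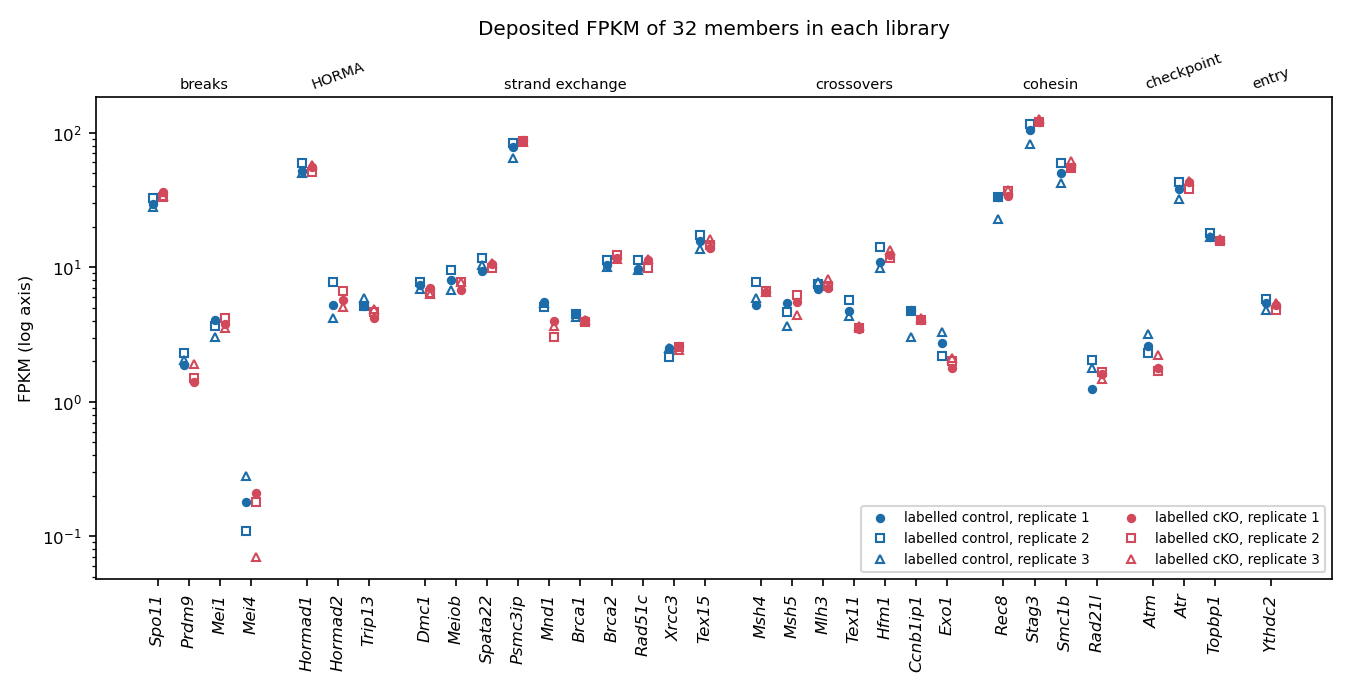
Deposited FPKM (log axis) of the 32 listed members in each library, grouped by role; blue marks are the 3 control-labelled libraries and red marks the 3 labelled cKO. Stag3 stands highest, at 82.4 to 126 FPKM, and Mei4 lowest, at 0.07 to 0.28 FPKM.

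Between the labelled groups, no member passed the test. edgeR's quasi-likelihood test, adjusted over all 18269 genes tested, called 0 of 32 members higher and 0 lower in cKO-labelled libraries, where it also called 0% of all genes in either direction. At an unadjusted p of 0.05 it had 3 members higher (Spo11, Psmc3ip and Stag3), where 8.85% of all genes were, and 1 lower (Atm), where 18.8% were. DESeq2 called 0 members in either direction, while it called 0.405% of all genes higher and 7.67% lower, and limma on log2(FPKM + 1) called 0 members, with 0.00650% of genes higher and 0% lower. Log2 fold changes, given here as labelled cKO minus labelled control, ran from -0.51 for Mnd1 to 0.36 for Rec8 and Stag3. The median over the 32 members was 0.080, with 21 positive and 11 negative, against -0.0048 over all genes, of which 49.5% were positive. Scaling by library totals in place of trimmed means (TMM) moved the median of all genes to -0.104 and that of the members to -0.018, with 15 positive.

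**Figure D2:**
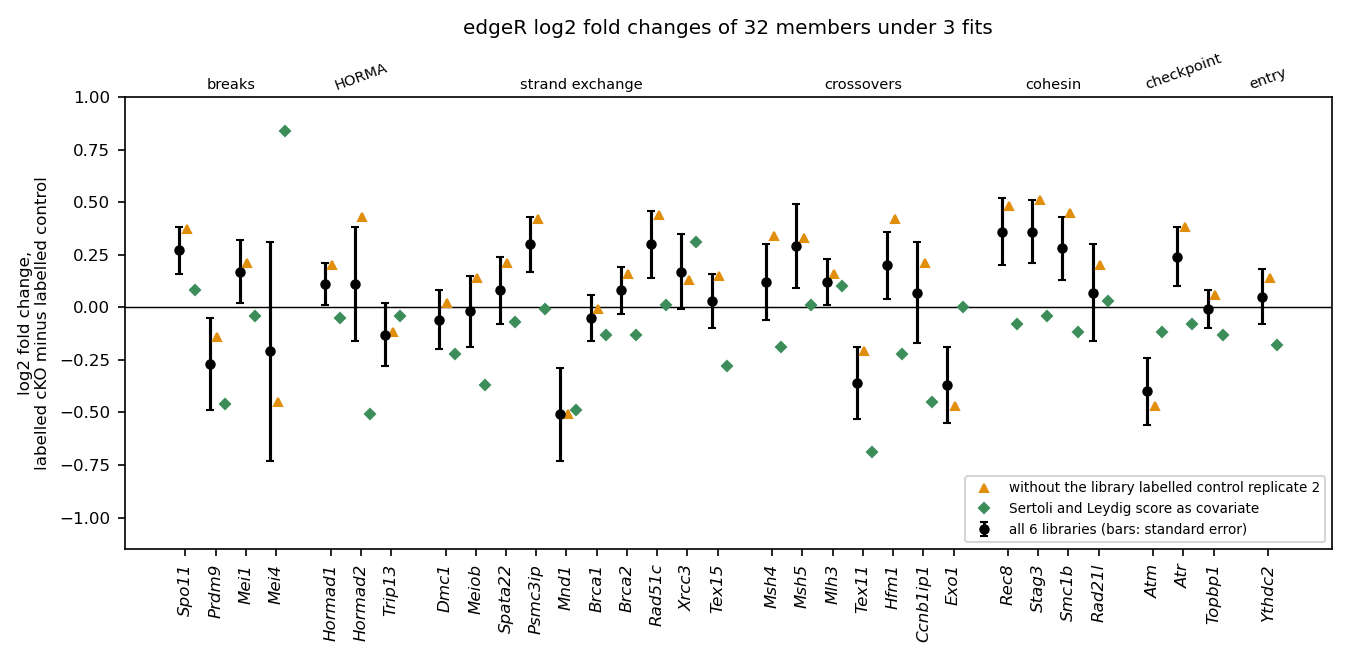
edgeR log2 fold changes (labelled cKO minus labelled control) of the 32 listed members, with standard errors for the fit on all 6 libraries, and point values for 2 other fits. Without the library labelled control replicate 2 most points lie higher, and with the somatic score added to the model 8 of 32 lie above 0.

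Read by library, 8 of 32 members had groups that did not overlap in TMM-scaled CPM, against 37.9% of all genes tested. The members higher in all 3 cKO-labelled libraries were Spo11, Psmc3ip, Xrcc3, Rec8 and Stag3, 5 of 32 where 18.0% of all genes were. Those lower in all 3 were Mnd1, Tex11 and Atm, 3 of 32 where 19.8% of all genes were. On deposited FPKM, Spo11, Psmc3ip, Rec8 and Stag3 were again without overlap and Xrcc3 was not, while Brca2 joined the higher side (9.60% of all genes). On the lower side Mnd1, Tex11 and Atm were joined by Trip13, Brca1, Exo1 and Topbp1 (26.1% of all genes).

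The genes of double-strand break formation divided. Spo11 (mm10 chromosome 2, 172977379 to 172993576), whose protein makes the breaks, stood at 29.4, 32.9 and 28.2 FPKM in control-labelled libraries and at 36.2, 33.4 and 33.5 FPKM in cKO-labelled ones. The groups did not overlap, although control replicate 2 came close to the lowest cKO-labelled library. The log2 fold change was 0.27 (SE 0.11, edgeR adjusted p = 0.17), and it was positive under each of the 16 settings run, from 0.08 to 0.37. Mei1, which SPO11 needs in order to cut, stood at 4.04, 3.68 and 3.01 against 3.76, 4.2 and 3.52 FPKM, with overlapping groups (log2 0.17, SE 0.15). Prdm9, a histone methyltransferase that places breaks at hotspots, was at 1.86, 2.29 and 2.05 against 1.41, 1.5 and 1.92 FPKM, again with overlap (log2 -0.27, SE 0.22). Mei4 had too few counts for a comparison (log2 -0.21, SE 0.52). The 4 genes summed to 36.0 ± 2.77 FPKM in control-labelled libraries and to 40.0 ± 1.40 in cKO-labelled ones (SD, n = 3 each), without overlap. Spo11 made up most of each sum.

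The HORMA-domain genes of the unsynapsed axis had overlapping groups in TMM-scaled CPM. Hormad1 stood at 52.0, 59.4 and 50.4 FPKM in control-labelled libraries and at 55.8, 51.2 and 57.0 in cKO-labelled ones (log2 0.11, SE 0.10). Hormad2 stood at 5.22, 7.72 and 4.22 against 5.75, 6.60 and 5.02 FPKM (log2 0.11, SE 0.27), and its highest and lowest libraries were both labelled control. Trip13, the ATPase that strips these proteins from synapsed axes, stood at 5.11, 5.16 and 5.92 against 4.2, 4.67 and 4.92 FPKM (log2 -0.13, SE 0.15). Its groups were apart in FPKM and in CPM by library totals, but overlapped in TMM-scaled CPM. The summed FPKM of the 3 genes was 65.0 ± 6.30 against 65.1 ± 2.36 (SD, n = 3 each). Of the 50-base stretches of Hormad1 transcripts, 22.9% also occur in transcripts of the pseudogenes Gm15529 and Gm7167 in GENCODE. Its counts could be split with these pseudogenes only if the annotation that was counted on held them, which was not checked.

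Among the 10 strand exchange genes, the partners Psmc3ip and Mnd1 lay on opposite sides. Their proteins, also called HOP2 and MND1, form a dimer that helps DMC1 to invade the homologue. Psmc3ip (chromosome 11, 101092141 to 101095435) stood at 78.3, 84.0 and 64.8 FPKM in control-labelled libraries and at 88.4, 87.0 and 85.5 in cKO-labelled ones (log2 0.30, SE 0.13, edgeR adjusted p = 0.18). Mnd1 (chromosome 3, 84087933 to 84155798) stood at 5.55, 5.08 and 5.44 against 3.95, 3.01 and 3.66 FPKM (log2 -0.51, SE 0.22, edgeR adjusted p = 0.18). Neither pair of groups overlapped, and the lowest library of Psmc3ip was control replicate 3. Mnd1 rested on 46 to 81 expected counts per library, and its log2 fold change stayed between -0.61 and -0.41 over its 15 settings. That of Psmc3ip ran from -0.01, with the somatic score in the model, to 0.42, without control replicate 2.

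Both genes of this pair share sequence with other annotated genes. Psmc3ip shares 385 of 1818 exon bases with Mlx on the opposite strand, whose level was lower in the means of cKO-labelled libraries (log2 -0.38, SE 0.26), and no source used here gives the strandedness of the libraries. Mnd1 shares 40.8% of its 50-base stretches with the pseudogene Mnd1-ps, which is not listed in the tables. Their part in the results was not tested.

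Of the other strand exchange genes, Tex15, a very long transcript whose protein is needed for recombinase loading, stood at 15.7, 17.3 and 13.6 against 13.8, 14.6 and 16.3 FPKM (log2 0.03, SE 0.13). Xrcc3, a homologous recombination repair gene, stood at 2.49, 2.14 and 2.52 against 2.58, 2.54 and 2.41 FPKM; its groups were apart in TMM-scaled CPM but overlapped in FPKM (log2 0.17, SE 0.18). Its partner Rad51c had the largest positive value of the group beside Psmc3ip (log2 0.30, SE 0.16; 9.47 to 11.4 FPKM, with overlap). Dmc1, the meiotic recombinase, ranged from 6.33 to 7.78 FPKM (log2 -0.06, SE 0.14), and the single-strand binding pair Meiob and Spata22 from 6.80 to 9.54 and from 9.39 to 11.6 FPKM (log2 -0.02 and 0.08). Spata22 overlaps the annotated gene Gm49340, which is not listed in any library, on the same strand over 1025 of 1274 exon bases. Brca1 and Brca2, the latter of which loads the recombinases, had log2 fold changes of -0.05 (SE 0.11) and 0.08 (SE 0.11). Brca1 stood at 4.45, 4.46 and 4.27 against 4.08, 3.91 and 4.06 FPKM. Its groups were apart in FPKM and in CPM by library totals, but overlapped in TMM-scaled CPM. Brca2 stood at 10.3, 11.3 and 10.1 against 11.7, 12.3 and 11.6 FPKM, apart in FPKM only.

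Crossover genes had no member higher without overlap. Hfm1, a helicase of crossover intermediates and the most abundant of the 7 listed, stood at 10.9, 14.2 and 9.83 FPKM in control-labelled libraries and at 12.3, 11.8 and 13.5 in cKO-labelled ones, with control replicate 2 the highest of all (log2 0.20, SE 0.16). Mlh3, the nuclease subunit at crossover sites, stood at 6.88, 7.44 and 7.71 against 7.02, 7.19 and 8.10 FPKM (log2 0.12, SE 0.11). Tex11, an X-linked gene (100838648 to 101059639) whose protein promotes crossovers, stood at 4.75, 5.72 and 4.31 against 3.5, 3.54 and 3.67 FPKM. Every library labelled cKO was below every one labelled control (log2 -0.36, SE 0.17, edgeR adjusted p = 0.19), and the value stayed negative over 16 settings, from -0.69 to -0.21.

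The MutS partners Msh4 and Msh5, which clamp crossover intermediates, had values of 0.12 (SE 0.18) and 0.29 (SE 0.20) with overlapping groups. Ccnb1ip1, the ubiquitin ligase HEI10, had 0.07 (SE 0.24), and the exonuclease gene Exo1 had -0.37 (SE 0.18). Exo1 stood at 2.71, 2.18 and 3.27 against 1.79, 2.0 and 2.11 FPKM. Its groups were apart in FPKM and in CPM by library totals, but overlapped in TMM-scaled CPM. Exo1 was highest in control replicate 3, at 3.27 FPKM, the library with the highest somatic score. Its log2 fold change was 0.00 with that score in the model, in a fit that cannot cleanly tell label and score apart. The part of cell composition in the Exo1 values was not tested. The summed level of the 7 genes was 41.7 ± 4.57 FPKM in control-labelled libraries and 41.6 ± 0.927 in cKO-labelled ones (SD, n = 3 each).

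Meiotic cohesin genes had the highest median of any role, and all 4 were positive (median log2 0.32). Other germ cell lists stood on the same side: the median was 0.23 for the synaptonemal complex genes (10 of 11 positive), 0.30 for pachytene spermatocyte markers (8 of 8), 0.36 for round spermatid markers (7 of 7) and 0.37 for elongating spermatid markers (8 of 8). For spermatogonial markers it was -0.42, and 4 of 11 were positive. The part of cell composition in the cohesin values was not tested. Stag3 (chromosome 5, 138272514 to 138312397), the stromal antigen subunit of meiotic cohesin, stood at 105, 117 and 82.4 FPKM in control-labelled libraries and at 119, 120 and 126 in cKO-labelled ones (log2 0.36, SE 0.15, edgeR adjusted p = 0.17). Rec8 (chromosome 14, 55618002 to 55625395), the kleisin that holds sister chromatids together until the second division, stood at 33.4, 33.2 and 22.9 against 33.7, 36.7 and 37.4 FPKM (log2 0.36, SE 0.16, edgeR adjusted p = 0.19). In both genes the groups did not overlap and control replicate 3 was the lowest library.

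Smc1b (chromosome 15, 85064689 to 85131957), the meiotic form of the SMC1 subunit, stood at 50.4, 59.1 and 41.9 against 55.5, 54.6 and 61.8 FPKM, with overlap (log2 0.28, SE 0.15, edgeR adjusted p = 0.23). Rad21l, the other meiotic kleisin, had 1.25 to 2.05 FPKM and a value of 0.07 (SE 0.23). The 4 genes summed to 183 ± 31.5 FPKM in control-labelled libraries and to 217 ± 9.20 in cKO-labelled ones (SD, n = 3 each; exact permutation test, two-sided p = 0.2, where 0.1 is the smallest that 3 against 3 allows). For the sums of the other roles, the exact permutation test gave p = 0.1 for break formation, 0.4 for strand exchange and larger values elsewhere. These p-values were not adjusted across roles. Without control replicate 3 the values of Stag3, Rec8 and Smc1b were 0.22, 0.20 and 0.15. With the somatic score in the model they were -0.04, -0.08 and -0.12, in a fit that cannot cleanly tell label and score apart.

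The checkpoint genes again divided. Atr, which acts on unsynapsed chromosomes and the sex body, stood at 37.9, 42.7 and 32.2 FPKM in control-labelled libraries and at 43.0, 38.0 and 43.4 in cKO-labelled ones, with overlap (log2 0.24, SE 0.14). Its activator Topbp1 stood at 16.8, 17.9 and 16.6 against 15.9, 15.6 and 16.3 FPKM, with groups apart in FPKM and overlapping in TMM-scaled CPM (log2 -0.01, SE 0.09). Atm (chromosome 9, 53437122 to 53536828), a kinase that responds to breaks and limits their number, stood at 2.60, 2.30 and 3.20 against 1.79, 1.68 and 2.22 FPKM without overlap (log2 -0.40, SE 0.16, edgeR adjusted p = 0.17). Atm was highest in control replicate 3, and its value was -0.29 without that library and -0.12 with the somatic score in the model. The latter fit cannot cleanly tell label and score apart, and the part of cell composition was not tested. Ythdc2, an RNA helicase required for entry into meiosis, stood at 5.44, 5.76 and 4.81 against 5.27, 4.77 and 5.40 FPKM (log2 0.05, SE 0.13).

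The lowest and highest levels of the members fell often in single control-labelled libraries. Of the 32 members, 18 had their lowest TMM-scaled CPM in control replicate 3, where 35.6% of all genes did, and 14 had their highest in control replicate 2, where 7.96% did. Only 4 had their highest in control replicate 3, where 40.9% of all genes did, 1 its highest in control replicate 1, where 5.95% did, and 1 its lowest in control replicate 2, where 7.87% did. The median deviation of the members from their own mean was -0.194 on the log2 scale in control replicate 3, 0.103 in control replicate 2 and -0.028 in control replicate 1, and between 0.004 and 0.076 in cKO-labelled libraries. Control replicate 3 also had the highest somatic score, at 7.14, and control replicate 2 the lowest of its group, at 5.58. Without control replicate 2, edgeR called 5 members higher (Smc1b, Psmc3ip, Spo11, Hfm1 and Stag3, adjusted p from 0.0314 to 0.0372, log2 0.37 to 0.51) and 0 lower, where it called 11.0% of all genes higher and 20.7% lower. When the somatic score entered the model, edgeR called 0 members, and 3 at an unadjusted p of 0.05 (Tex11, Meiob and Tex15), all lower, where 1.65% of all genes were lower and 2.11% higher; the members' median was then -0.100 with 8 of 32 positive, and 17 of 32 had changed sign.

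**Figure D3:**
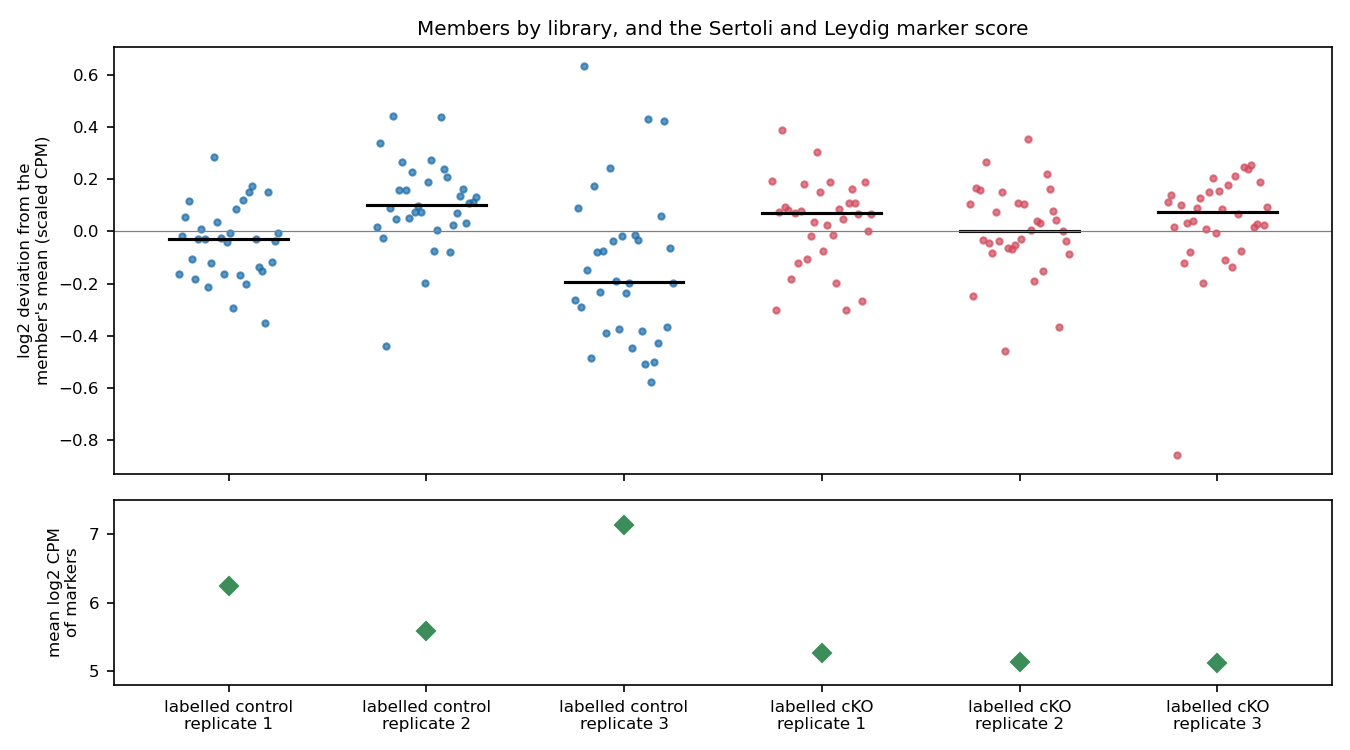
Upper panel: deviation of each of the 32 listed members from its mean log2 level (TMM-scaled CPM) in each library, with the median as a bar; lower panel: somatic score (mean log2 CPM of 23 markers) in the same libraries. Control replicate 3 has the lowest member median (-0.194) and the highest marker score (7.14).

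Abundant and scarce members differed in sign. All 7 members with a mean of at least 20 FPKM had positive values (median log2 0.28, range 0.11 to 0.36), where 77.5% of the 4405 genes at that level did, with a median of 0.21. Of the 12 members between 5 and 20 FPKM, 9 were positive (median 0.08), where 46.0% of genes were. Of the 13 members under 5 FPKM, 5 were positive (median -0.13), where 37.3% of genes were, with a median of -0.21. Across the 32 members, which share the same 6 libraries, log2 mean FPKM and log2 fold change had a Pearson's r of 0.629 and a Spearman's rho of 0.625, and across all 18269 genes 0.255 and 0.295. Genes are not independent replicates, so these are descriptions only.

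**Figure D4:**
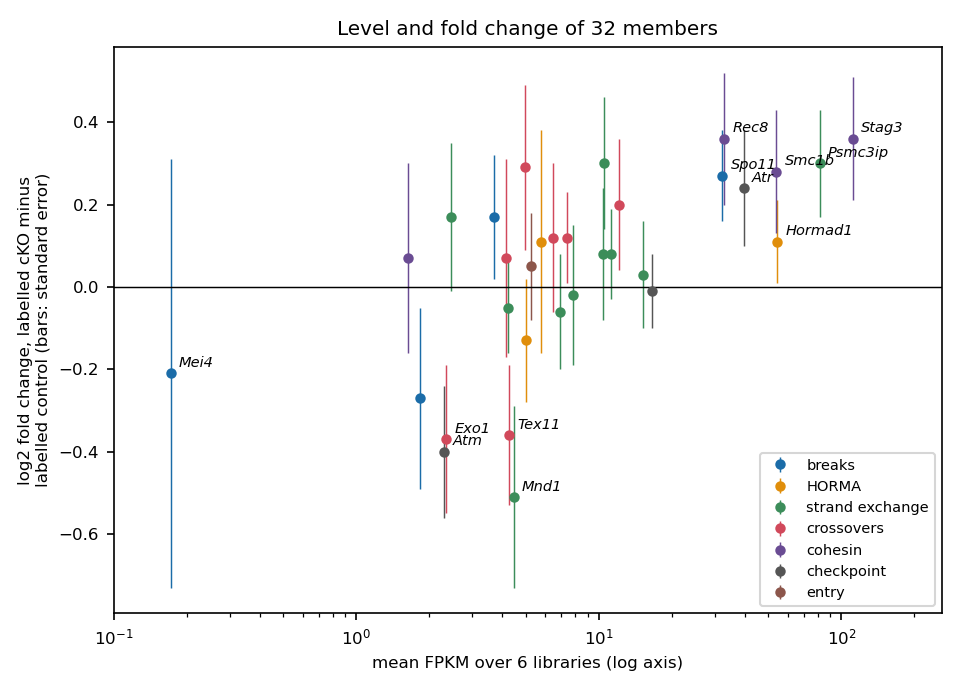
Mean FPKM over the 6 libraries (log axis) against edgeR log2 fold change (labelled cKO minus labelled control) for the 32 listed members, coloured by role, with standard errors. The 7 members above 20 FPKM all lie above 0, and Mnd1, Atm, Exo1 and Tex11, all under 5 FPKM, lie lowest.

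Members were then set against their partners or mitotic counterparts by the ratio of FPKM within a library, which does not depend on depth. The 13 pairs were chosen after the values were seen, and some share a gene, so the ratios are given as values with no test. Stag3 exceeded Stag1 by 12.6, 13.3 and 8.07 times in control-labelled libraries and by 14.6, 15.4 and 15.2 times in cKO-labelled ones. Smc1b exceeded Smc1a by 12.5, 23.2 and 6.76 times against 24.8, 26.0 and 26.3 times. Rec8 stood at 1.23, 1.18 and 0.619 times Rad21, the mitotic kleisin, against 1.40, 1.55 and 1.43 times. The ratios of each of these pairs were higher in all 3 cKO-labelled libraries, and lowest in control replicate 3. The denominators Stag1, Smc1a and Rad21 were highest in that library, at 10.21, 6.20 and 37.05 FPKM, and it also had the highest somatic score. Smc1b itself overlapped between the groups while Smc1a did not, so a ratio can part the groups through its denominator. The part of cell composition in these ratios was not tested. Rad21l was far scarcer, at 0.0458 to 0.0730 times Rad21.

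Psmc3ip exceeded Mnd1 by 14.1, 16.5 and 11.9 times in control-labelled libraries and by 22.4, 28.9 and 23.4 times in cKO-labelled ones. Atr exceeded Atm by 14.6, 18.5 and 10.1 times against 24.0, 22.6 and 19.5 times. The ratios of Brca2 to Brca1 and of Stag3 to Stag2 were also higher in every cKO-labelled library. Groups overlapped for Meiob to Spata22 (0.645 to 0.858), Hormad1 to Hormad2 (7.69 to 11.9), Msh4 to Msh5, Rad21l to Rad21, Rec8 to Rad21l and Spo11 to Mei1.

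The deposited length of a gene was the same in every library for 11 of the 32 listed members. It was apart between the labelled groups for 2, 1 lower, where 3.89% of all genes were, and 1 higher, where 3.13% were. These were Msh5 (3052.49, 3075 and 3137 bases in control-labelled libraries against 3013, 2985 and 3052.09 in cKO-labelled ones) and Atr (8278, 8288 and 8287 against 8309, 8293 and 8298 bases). Brca2 stood at 7387, 7050 and 6796 against 6241, 5572 and 6883 with overlap. Its FPKM was 10.6 ± 0.643 against 11.9 ± 0.395 (SD, n = 3 each) without overlap, and its groups overlapped in TMM-scaled CPM (log2 0.08).

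The wider pathway was read from a list of 80 other genes of recombination, cohesion and checkpoint signalling, of which 75 were listed and tested. Ankrd31, Shoc1, Rnf212b and Meiosin were listed in no table, and no entry could be paired with Spo16. edgeR and DESeq2 called 0 of the 75 in either direction. At an unadjusted p of 0.05 edgeR had 3 higher, where 8.85% of all genes were, and 2 lower, where 18.8% were. The median log2 fold change was 0.077 with 50 of 75 positive. By role, the medians were 0.18 for break formation, 0.10 for strand exchange, 0.14 for crossovers, 0.02 for cohesin and its regulators, 0.08 for the checkpoint and 0.10 for meiotic entry. Groups did not overlap for 17 genes on the higher side, where 18.0% of all genes did not, and for 5 on the lower, where 19.8% did not.

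Of these genes the mitotic cohesin subunit gene Smc1a had the lowest value (log2 -0.83, SE 0.29, edgeR adjusted p = 0.17). It stood at 4.02, 2.55 and 6.20 FPKM in control-labelled libraries and at 2.24, 2.10 and 2.35 in cKO-labelled ones. Its level was highest in control replicate 3, and with the somatic score in the model its value was 0.13. That fit cannot cleanly tell label and score apart, and the part of cell composition was not tested. The other mitotic cohesin genes Rad21, Stag1, Stag2 and Smc3 had values of -0.20, -0.07, -0.33 and 0.05, with overlapping groups in TMM-scaled CPM, while in FPKM Rad21, Stag1 and Stag2 were lower in every cKO-labelled library. On the positive side without overlap in TMM-scaled CPM were the helicase gene Blm (0.39, SE 0.12), the nuclease genes Mus81 (0.37, SE 0.14) and Gen1 (0.41, SE 0.20), the break formation gene Rec114 (0.43, SE 0.29) and Meikin (0.34, SE 0.18), which guards sister cohesion at the first division.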

How the data were processed

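The authors' deposited tables, 1 per library, give for each gene an expected count, an FPKM value and a length, per the file headers. The submitters' processing notes name bcl2fastq 2.16, HISAT2 2.0.4, Bowtie2 2.2.5, RSEM, DESeq2 and the build mm10, with no role for any. The deposited expected count is an estimate without normalization (24.6 to 25.8% were not whole, beyond 0.001), while the deposited FPKM divides by gene length and library depth. Genes under 0.01 FPKM are not listed and were set to 0.

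Rounded expected counts went into edgeR 4.0.16 (R 4.3.3) with these settings: filterByExpr (minimum count 10, total 15), TMM, quasi-likelihood F-test, Benjamini-Hochberg adjustment over 18269 genes, threshold 0.05. The common biological coefficient of variation was 22.8%. Scripts were tested on simulated data. The simulation had less spread between libraries and larger fold changes than the members had, so it does not measure power in these data. Alternatives were DESeq2 1.42.0 and its size factors, library totals, limma 3.58.1 on log2(FPKM + 1) and log2(FPKM + 0.1) at 1 FPKM in 3 libraries, other count filters, each library left out, a replicate block and the somatic score as a covariate. Positions and promoters come from RefSeq GRCm38.p6, exon overlap and shared 50-base stretches from GENCODE M21 on the same assembly. All 33 members are named; per-library values are given where groups do not overlap in TMM-scaled CPM or FPKM and for the 2 most abundant of each role. Of other pathway genes, called ones, mitotic counterparts and the 6 largest without overlap are named, except 1 item that is not reported here. Members and lists were chosen with earlier results of these data known.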

Additional observations from a re-analysis of the deposited data

How the results depend on the processing

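No member passed at an adjusted p of 0.05 under any of the 15 alternatives except without control replicate 2, and over the fits that leave out 1 library the count ran from 0 to 5. For the other pathway genes it ran from 0 to 8 in those fits and was 0 elsewhere. Over all genes it ran from 0 to 5900 in those fits, again highest without control replicate 2, and was 1436 in DESeq2, 1 in limma with either pseudocount and 0 in the other edgeR fits. The members' median log2 fold change, 0.080, turned to -0.018 by library totals and to -0.100 with the somatic score as a covariate; over the fits that leave out 1 library it ran from 0.0425 to 0.182. Signs held under every setting for 11 members: Spo11, Rad51c, Xrcc3, Msh5 and Mlh3 positive, and Prdm9, Trip13, Mnd1, Brca1, Tex11 and Atm negative. Libraries of the same replicate number did not deviate together (r of 0.0428, -0.00665 and -0.0388). These values, from 3 libraries per group, cannot exclude that the number pairs samples. With the replicate block edgeR called 0 members and 0 genes, and the members' median was 0.0924. Mei4 rested on 4 to 15 counts per library and had an SE of 0.52.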
